A study of Homo sapiens with 12 samples.

Results

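Lysosome and autophagy genes were followed across RNA-seq libraries of a human leukaemia cell line in which the oncogenes TAL1, LMO1 or both were switched on. The set holds 40 genes, listed by symbol, among 63677 genes in the deposited count table. It was chosen with earlier results of these data known. It comprises 3 transcription factors of the MiT/TFE family, 4 lysosomal membrane proteins, 8 proteases, 6 glycosidases, 3 genes of lysosomal lipid breakdown, 5 genes of the V-ATPase proton pump and 11 genes of autophagy. All 40 symbols were matched to an Ensembl identifier in the count table, and 38 of them had enough counts to be tested. MITF had 0 counts in all 12 libraries, and CTSL had 8 counts over all of them.

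The cells were HPB-ALL, a cell line derived from human T-cell acute lymphoblastic leukaemia, and all of them carried a lentiviral construct and had passed drug selection. There were 3 lines: the TAL1 line (T5 in the sample titles), the LMO1 line (L4) and the TAL1/LMO1 line (C25). Each was given doxycycline, which induces the construct, or DMSO, the vehicle, with 2 libraries per line and treatment, so n = 2 in each of 6 groups. Selection began 48 h after infection and lasted 36 h, in medium with 10% tetracycline-free serum. The dose and the duration of doxycycline, and whether a line grew from a single cell, are not stated in the labels. The 12 libraries include no line free of a construct, so the lines share the virus and the selection, and an effect of doxycycline itself cannot be told apart from that of a transgene within a line.

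The libraries held 14865073 to 15917713 counts each, and 16287 genes were tested. In CPM (counts normalised to a common scaled library size), TAL1 rose from a mean of 3.97 to 39.2 in the TAL1 line and LMO1 from 2.84 to 226 in the LMO1 line. The TAL1/LMO1 line went from 5.21 to 900 CPM of TAL1 and from 3.67 to 1539 CPM of LMO1, so it held far more of each transgene's RNA than the single lines. The summed level of 10 T-lineage markers lay between 2600 and 3068 CPM in every library. With doxycycline in the TAL1/LMO1 line, however, all 10 were called, beside 60.2% of all genes tested (28.5% higher, 31.7% lower). Of these markers 4 were higher and 6 lower, with log2 changes from -3.74 to 1.73. The part of this change in the results below was not tested. The summed level of 10 markers of monocytes and macrophages, cells rich in lysosomes, lay between 0.852 and 3.54 CPM, with 4 to 6 of the 10 at 0 in a group. In bulk RNA, a change in the share of cells that express a gene cannot be told apart from a change in its RNA per cell.

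Lysosomes are acidic compartments in which hydrolases take apart proteins, sugars, lipids and nucleic acids, with the V-ATPase pumping in the protons. In autophagy, a double membrane closes around cytoplasm or damaged organelles and fuses with lysosomes. TFEB, TFE3 and MITF are related basic helix-loop-helix leucine-zipper factors that activate many of these genes through a short palindromic element, and the kinase mTORC1, itself docked on lysosomes, holds them in the cytoplasm when nutrients are plentiful. TAL1 is also a basic helix-loop-helix factor, and LMO1 links such factors into larger complexes through its LIM domains.

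Promoter sequences of some members are shown because they hold letters that match at least part of an element read by the MiT/TFE factors. RefSeq promoters (GRCh38.p14, 250 bases before to 50 after a gene's start) were found for 30 of the 40 symbols. They were searched on both strands for CACGTG, the core of the element, for the longer palindrome made by GT before and AC after that core, and for TCATGTG, the M-box of MITF. The core lay in the promoters of 7 members, in 8 of the 40 windows of the 30 symbols. Of all 35116 promoter windows 7.26% held it, and of the 22199 windows of protein-coding genes 8.34%. Of these 7, CTSD, LAMP1, CLN3, ATP6V0D1, MCOLN1 and CTSA rose with doxycycline in the TAL1/LMO1 line and GAA fell. Of the 23 members with a promoter but no such core, 13 rose, 3 fell, 5 were not called and 2 were not tested. Over all genes tested in that line, 28.5% rose and 31.7% fell. Whether the core bears on the response was not tested. The longer palindrome lay in the promoters of GAA and MCOLN1 (0.353% of all windows, 0.496% of protein-coding ones). The M-box lay in those of TPP1 and CTSA (2.92% of all windows, 2.32% of protein-coding ones). In the sequences below, written 5′ to 3′ on the gene's strand, capitals mark the motif: the core in the 30-base windows and in LAMP1, and the M-box or its reverse complement in TPP1.
CTSD: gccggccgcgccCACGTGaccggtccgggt
CLN3: aaaacctctgagCACGTGatgggggaacac
ATP6V0D1: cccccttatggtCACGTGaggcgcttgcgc
GAA: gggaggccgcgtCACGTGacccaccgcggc
MCOLN1: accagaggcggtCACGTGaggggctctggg
CTSA: gaggaagactgtCACGTGgcgccggagttc
LAMP1: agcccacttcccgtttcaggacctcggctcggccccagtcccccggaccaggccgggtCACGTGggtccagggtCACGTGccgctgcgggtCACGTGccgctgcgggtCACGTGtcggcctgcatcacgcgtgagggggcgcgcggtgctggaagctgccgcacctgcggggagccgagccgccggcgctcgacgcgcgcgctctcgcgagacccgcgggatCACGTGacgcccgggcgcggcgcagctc
TPP1: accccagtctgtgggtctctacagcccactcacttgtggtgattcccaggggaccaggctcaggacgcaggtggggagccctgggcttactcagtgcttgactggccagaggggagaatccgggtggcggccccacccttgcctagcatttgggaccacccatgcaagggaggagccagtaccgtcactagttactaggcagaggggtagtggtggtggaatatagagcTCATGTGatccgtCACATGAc
LAMP1, with the 250 bases before its start at chr13:113296989-113297238 on the plus strand, had 5 copies of the core there, at 192, 176, 159, 142 and 28 bases before the start. Another copy in the searched window began 1 base before the start, runs past the stretch shown and is not marked. TPP1, at chr11:6619423-6619672 on the minus strand, had 2 M-box matches, at 21 and 8 bases before the start. The 30-base windows lie at chr11:1763957-1763986 (CTSD, minus), chr16:28492087-28492116 (CLN3, minus), chr16:67481199-67481228 (ATP6V0D1, minus), chr17:80101493-80101522 (GAA, plus), chr19:7522571-7522600 (MCOLN1, plus) and chr20:45891281-45891310 (CTSA, plus). Their cores began 47 (CTSD), 30 (CLN3, or 22 from its other listed start), 59 (ATP6V0D1), 76 (GAA), 41 (MCOLN1) and 42 (CTSA) bases before the start. CLN3, GAA, MCOLN1 and CTSA each had 2 copies, of which the one farther upstream is shown. A match describes the letters only, shows no binding and does not tell which factor would bind.

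In the TAL1/LMO1 line, doxycycline raised most of the lysosome and autophagy genes and lowered the most abundant of them. Calls were made by edgeR's quasi-likelihood test where the Benjamini-Hochberg adjusted p over all genes tested was under 0.05. Of the 38 members tested, 24 rose, 6 fell and 8 were not called. In this comparison 60.2% of all genes tested were called, 28.5% higher and 31.7% lower, so that being called was common, while 24 of 38 rising stood beside 28.5% of all genes. The median log2 fold change was 0.32 over the members and -0.01 over all genes tested. Most changes were modest: 2 members rose by more than 1 on the log2 scale and none fell by that much.

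**Figure D1:**
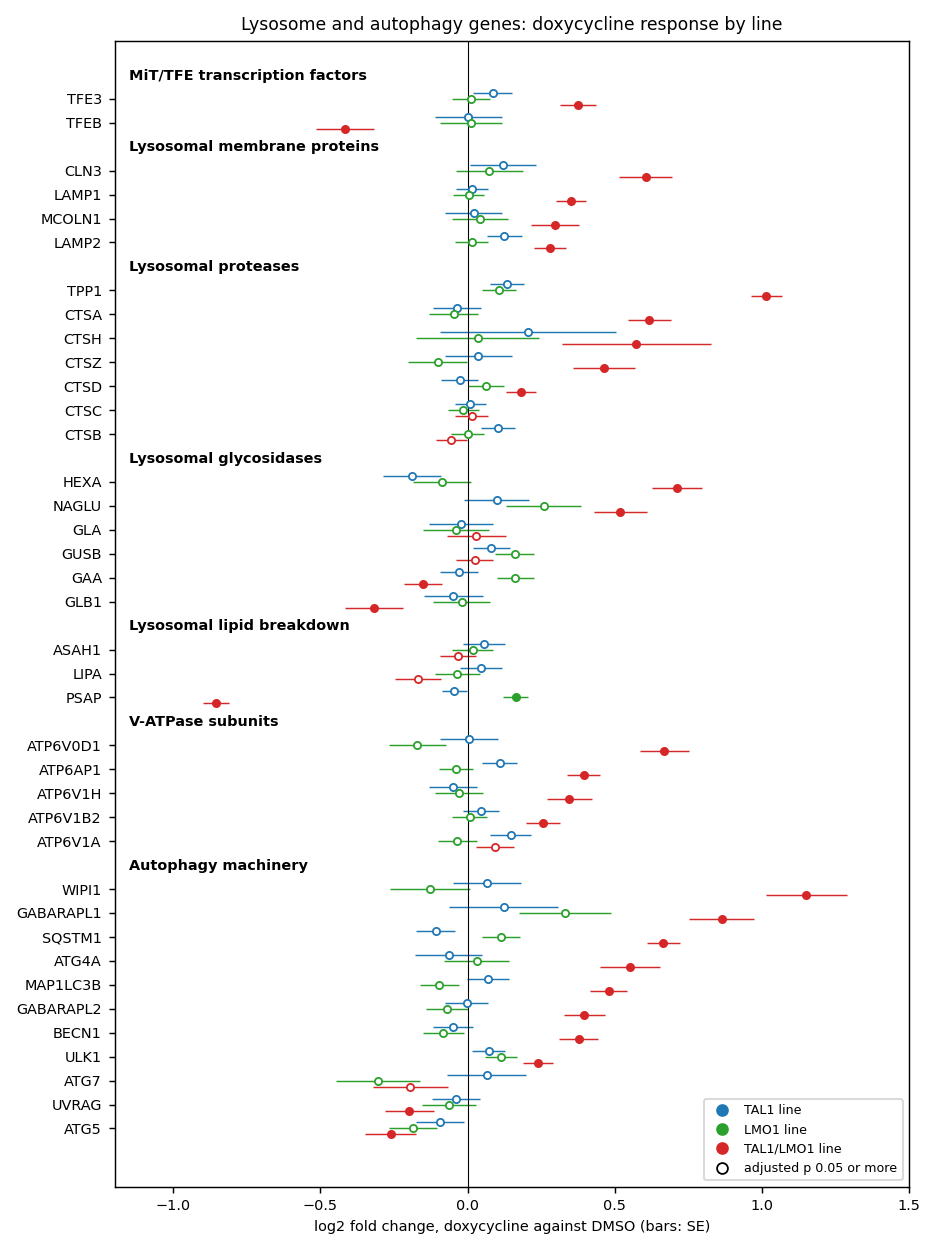
Log2 fold change with doxycycline against DMSO for the 38 tested members, grouped by role, with 1 point per line (blue TAL1, green LMO1, red TAL1/LMO1) and bars of 1 SE; filled points have an adjusted p under 0.05. Filled red points lie from -0.86 (PSAP) to 1.15 (WIPI1), and the only filled point of a single line is PSAP in the LMO1 line.

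Of the 3 transcription factors, the 2 that were measured moved in opposite directions in the TAL1/LMO1 line. TFE3 was at 63.1 and 67.1 CPM with DMSO and at 82.5 and 86.4 CPM with doxycycline, a log2 change of 0.38 (SE 0.06, adjusted p = 2.43e-07). TFEB was at 21.0 and 21.4 CPM with DMSO and at 16.1 and 15.7 CPM with doxycycline, a log2 change of -0.42 (SE 0.10, adjusted p = 0.000164). The libraries of both treatments did not overlap for either gene. With 2 libraries per group, such a gap was also seen for members not called, such as CLN3 in the TAL1 line. Here and below, the share of all genes without overlap is not given, so a gap describes the libraries only. In the single lines TFEB stayed between 11.5 and 12.9 CPM (TAL1 line) and between 15.7 and 16.7 CPM (LMO1 line) under both treatments, so TFEB in the induced TAL1/LMO1 line lay within the range of the LMO1 line. TFE3 lay between 56.0 and 69.7 CPM in the 8 libraries of the single lines, below both induced TAL1/LMO1 libraries. Per kilobase of exon, the mean level of TFE3 was 15.2 CPM and that of TFEB 3.75 CPM in the TAL1/LMO1 line with DMSO, and 19.7 and 2.81 CPM with doxycycline. MITF, at 0 counts, was below 0.198 CPM in each library, the limit that a count of 0 allows.

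The 4 lysosomal membrane genes all rose in the TAL1/LMO1 line. CLN3, whose loss causes a juvenile lysosomal storage disease of neurons, was at 18.8 and 21.4 CPM with DMSO and at 30.2 and 30.9 CPM with doxycycline (log2 0.60, SE 0.09, adjusted p = 9.49e-09). LAMP1 and LAMP2, the heavily glycosylated proteins that line the membrane, rose from 150 ± 0.74 to 192 ± 9.5 CPM (SD; log2 0.35) and from 110 ± 6.2 to 133 ± 2.9 CPM (log2 0.28). MCOLN1, a channel that releases calcium from lysosomes, was at 25.3 and 27.4 CPM and then at 31.8 and 32.9 CPM (log2 0.30, SE 0.08, adjusted p = 0.00129). Without replicate 1 of the TAL1/LMO1 DMSO libraries, MCOLN1 was at 0.23 with an adjusted p of 0.052.

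Among the proteases, 5 of the 7 tested rose and none fell. TPP1, a tripeptidyl peptidase, was at 145 and 138 CPM with DMSO and at 273 and 299 CPM with doxycycline, a log2 change of 1.02 (SE 0.05, adjusted p = 5.06e-29). Both single lines had TPP1 between 85.3 and 102 CPM in all 8 libraries, so the induced TAL1/LMO1 libraries were the highest and the TAL1/LMO1 DMSO libraries came next. CTSA, a carboxypeptidase that also shields lysosomal glycosidases, rose from 58.1 ± 5.9 to 89.2 ± 7.2 CPM (log2 0.62), and CTSZ, another carboxypeptidase, from 14.2 ± 0.54 to 19.6 ± 1.8 CPM (log2 0.46). CTSD, the main aspartic protease of lysosomes, changed little for its level, from 141 ± 1.1 to 160 ± 2.4 CPM (log2 0.18, SE 0.05, adjusted p = 0.00183). CTSH, an aminopeptidase, was at 1.41 and 3.03 CPM with DMSO and at 2.92 and 3.69 CPM with doxycycline (log2 0.57, SE 0.25, adjusted p = 0.0432). The CTSH libraries overlapped, and its call was lost without TAL1/LMO1 DMSO replicate 1 (0.12, adjusted p = 0.755) or doxycycline replicate 2 (0.38, adjusted p = 0.304). It was also lost in DESeq2 (adjusted p = 0.150) and in edgeR with no filter on low counts (0.0890), and without DMSO replicate 2 the change was 1.21. CTSB and CTSC, both cysteine proteases, were not called, at -0.05 and 0.01. CTSL, a cysteine protease, reached at most 0.184 CPM (3 counts) in a library and was not tested.

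The glycosidases were split, with 2 higher, 2 lower and 2 not called. HEXA, which trims gangliosides as part of beta-hexosaminidase A, was at 24.0 and 23.2 CPM with DMSO and at 35.7 and 41.7 CPM with doxycycline (log2 0.71, SE 0.08, adjusted p = 1.47e-11). All 8 single-line libraries had HEXA between 17.2 and 21.9 CPM, below every TAL1/LMO1 library. NAGLU, which acts on heparan sulfate, rose from 20.5 ± 0.90 to 29.4 ± 0.34 CPM (log2 0.52). GLB1, lysosomal beta-galactosidase, was at 21.7 and 20.2 CPM with DMSO and at 17.1 and 16.6 CPM with doxycycline (log2 -0.32, SE 0.10, adjusted p = 0.00417). GAA, which breaks down glycogen, was at 77.5 and 80.8 CPM and then at 72.5 and 70.0 CPM (log2 -0.15, SE 0.06, adjusted p = 0.0339). GLA, alpha-galactosidase, and GUSB, beta-glucuronidase, were not called, at 0.03 and 0.02.

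PSAP moved against most of the set and by more than any other falling member. It encodes prosaposin, which is cut into the saposins, small proteins that present sphingolipids to their hydrolases. Its level was 892 and 878 CPM with DMSO and 482 and 496 CPM with doxycycline in the TAL1/LMO1 line, a log2 change of -0.86 (SE 0.04, adjusted p = 3.76e-29). The TAL1 line had PSAP at 645 and 647 CPM with DMSO and 619 and 634 CPM with doxycycline, and the LMO1 line at 729 and 689 CPM and then 805 and 783 CPM. The TAL1/LMO1 line therefore held the highest PSAP level of the 12 libraries before induction and the lowest after it. The other genes of lipid breakdown, ASAH1 (acid ceramidase) and LIPA (lysosomal acid lipase), were not called, at -0.03 and -0.17 (adjusted p = 0.0525 for LIPA).

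Of the 5 V-ATPase genes, 4 rose and none fell. ATP6V0D1, a subunit of the membrane sector, was at 24.7 and 23.9 CPM with DMSO and at 38.1 and 39.2 CPM with doxycycline (log2 0.67, SE 0.08, adjusted p = 5.12e-11). Its level was between 17.6 and 21.6 CPM in the 8 single-line libraries, with no overlap with either group of the TAL1/LMO1 line. ATP6AP1, an accessory subunit, rose from 107 ± 0.42 to 141 ± 10 CPM (log2 0.39), ATP6V1H from 33.1 ± 1.2 to 42.1 ± 3.2 CPM (log2 0.35) and ATP6V1B2 by 0.26 on the log2 scale (0.17 without TAL1/LMO1 DMSO replicate 2, and still called). The last 2 belong to the sector that hydrolyses ATP. ATP6V1A, the catalytic subunit, was at 0.09 and not called.

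Of the 11 autophagy genes, 8 rose and 2 fell. WIPI1, which binds phosphatidylinositol 3-phosphate on growing autophagosomes, had the largest rise of the set: 6.16 and 5.34 CPM with DMSO and 13.4 and 12.2 CPM with doxycycline, a log2 change of 1.15 (SE 0.14, adjusted p = 1.4e-11). WIPI1 in the TAL1 line was at 13.2 and 12.6 CPM with DMSO and 14.5 and 12.6 CPM with doxycycline, and in the LMO1 line at 9.43 and 9.39 CPM and then 8.44 and 8.77 CPM. The TAL1/LMO1 line with DMSO thus had the lowest WIPI1 of the 12 libraries, and with doxycycline its values overlapped those of the TAL1 line. GABARAPL1, an ATG8-family protein that is joined to the autophagosome membrane, was at 12.6 and 11.1 CPM with DMSO and at 20.6 and 22.6 CPM with doxycycline (log2 0.86, SE 0.11, adjusted p = 1.45e-10). Its level in the single lines was 3.99 to 7.73 CPM, below all 4 TAL1/LMO1 libraries.

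SQSTM1, the cargo receptor p62, was at 82.5 and 87.4 CPM with DMSO and at 140 and 130 CPM with doxycycline in that line (log2 0.67, SE 0.06, adjusted p = 2.12e-17). The single lines held SQSTM1 at 50.3 to 63.8 CPM, with no overlap. Of the other ATG8-family genes, MAP1LC3B rose from 64.5 ± 8.9 to 90.0 ± 1.8 CPM (log2 0.48) and GABARAPL2 from 49.3 ± 7.1 to 64.8 ± 1.5 CPM (log2 0.40). Without TAL1/LMO1 DMSO replicate 2, GABARAPL2 was at 0.24 and still called. ATG4A, a protease that prepares ATG8 proteins, rose from 15.1 ± 0.46 to 22.1 ± 2.1 CPM (log2 0.55). BECN1, a subunit of the lipid kinase complex that starts autophagosomes, rose from 47.5 ± 1.1 to 61.8 ± 1.2 CPM (log2 0.38), and ULK1, the kinase upstream of it, from 161 ± 5.6 to 191 ± 7.4 CPM (log2 0.24).

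The conjugation gene ATG5 and UVRAG, a partner of BECN1, were the autophagy genes that fell. ATG5 was at 29.1 and 27.4 CPM with DMSO and 21.7 and 25.4 CPM with doxycycline (log2 -0.26, SE 0.09, adjusted p = 0.00692). UVRAG was at 29.8 and 33.2 CPM and then at 25.9 and 29.1 CPM (log2 -0.20, SE 0.08, adjusted p = 0.0364). Neither overlapped between treatments, though for UVRAG the gap was smaller than the spread within either treatment. Without doxycycline replicate 1 or 2, ATG5 was at -0.17 or -0.39 and UVRAG at -0.13 or -0.30, and without DMSO replicate 2 UVRAG was also at -0.13. ATG7, the enzyme that activates ATG12, the partner of ATG5, was not called at -0.19 (adjusted p = 0.185). Without TAL1/LMO1 doxycycline replicate 2, ATG7 was at -0.46 with an adjusted p of 0.0082. MAP1LC3B and GABARAPL1 have near-identical copies elsewhere in the genome, and no source used here says how shared reads were counted.

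**Figure D2:**
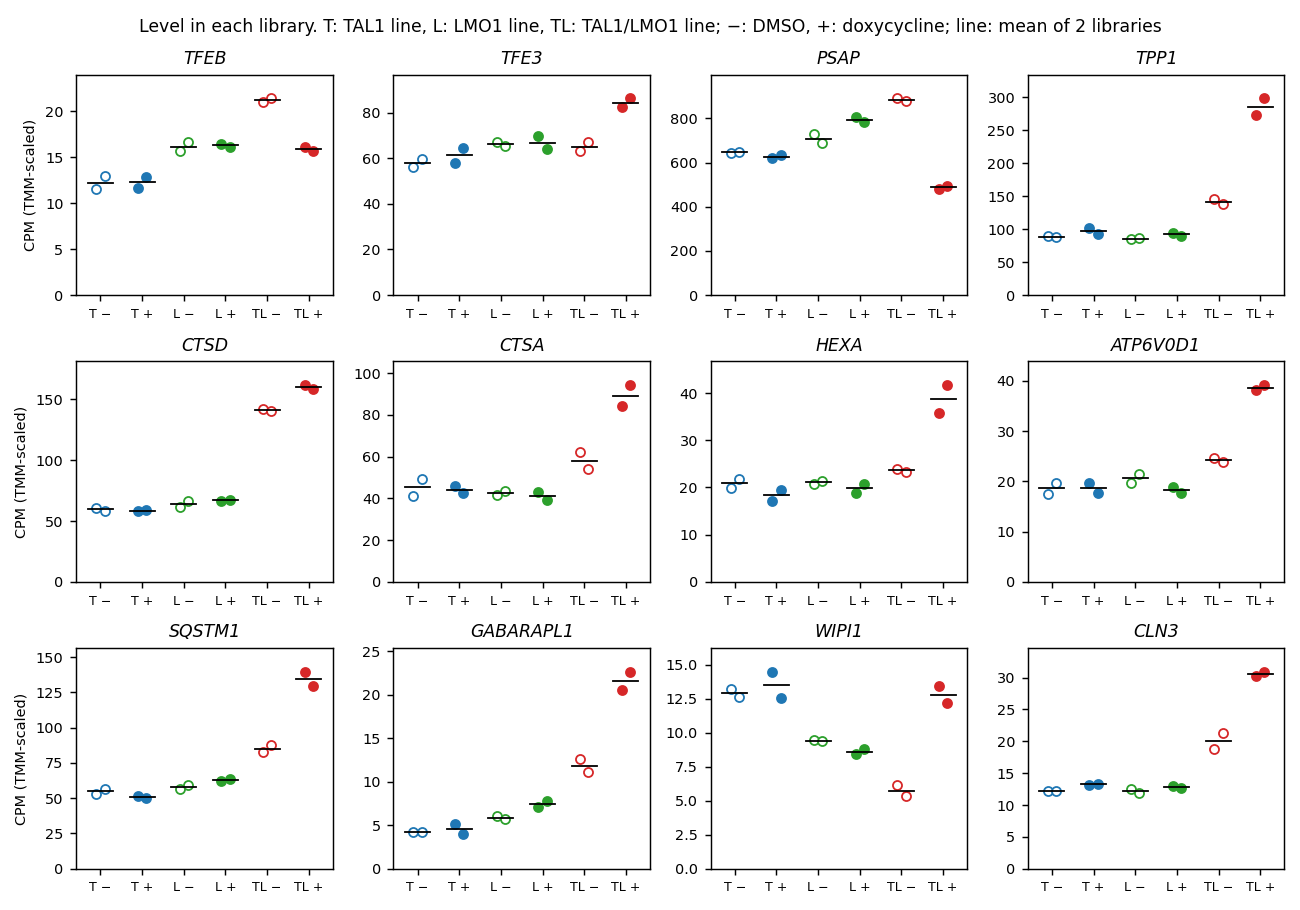
CPM in each library for 12 members, with open points for DMSO, filled points for doxycycline and a line at the mean of 2 libraries; every axis starts at 0. In the TAL1/LMO1 line PSAP falls from 885 to 489 CPM while TPP1 rises from 141 to 286 CPM, and TFEB falls to the level of the LMO1 line.

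All 24 rises in the TAL1/LMO1 line kept their call with total counts or DESeq2's size factors in place of TMM. With total counts, 4 of the 6 falls lost theirs. TMM factors in that line were 1.01 in the DMSO libraries and 1.08 in the doxycycline libraries. Total counts therefore shifted the log2 changes there upward, so this setting cannot tell whether rises are firmer than falls. With total counts, the count over all 40 members was 25 higher and 2 lower, and the median of all genes tested moved from -0.01 to 0.09. The share of all genes called with total counts is not given, so that count describes the members only. PSAP and TFEB were the falls that remained, at -0.76 and -0.32, while GLB1 was at -0.22 (adjusted p = 0.0502), ATG5 at -0.16 (0.0942), UVRAG at -0.10 (0.308) and GAA at -0.05 (0.482). Single TAL1/LMO1 libraries also decided these 4 calls: GLB1 was lost without DMSO replicate 1 (adjusted p = 0.0535), ATG5 without DMSO replicate 1 (0.0661) or doxycycline replicate 1 (0.157), UVRAG without DMSO replicate 2 (0.299) or doxycycline replicate 1 (0.261), and GAA without replicate 2 of DMSO (0.146) or doxycycline (0.104). In DESeq2's own Wald test 23 of the 24 rises remained, CTSH being lost, and so did 3 of the 6 falls, with ATG5 (adjusted p = 0.0503), UVRAG (0.164) and GAA (0.148) lost. The falls of UVRAG and GAA were also lost in edgeR with DESeq2's size factors (0.0534 and 0.0549), with a stricter low-count filter (0.0516 and 0.0550) and with only the TAL1/LMO1 groups fitted (0.0504 and 0.0505). In the authors' deposited table for this line, 22 members were higher and 2 lower at an adjusted p under 0.05, and 2 had no adjusted p. The share of all genes called by the authors is not given.

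In the TAL1 line and the LMO1 line, almost none of the members passed the test. In the TAL1 line 0 of 38 were called by edgeR and 0 by DESeq2, beside 1.84% of all genes (0.982% higher, 0.853% lower), with log2 changes between -0.19 (HEXA) and 0.21 (CTSH). TPP1 (0.14), ATP6V1A (0.15) and LAMP2 (0.12) had an unadjusted p under 0.05 in edgeR. That was 3 of 38 members, beside 1981 of all 16287 genes tested. These genes are named after their values were seen. In the LMO1 line 1 of 38 was called, PSAP, beside 2.14% of all genes (1.18% higher, 0.964% lower). PSAP was at 729 and 689 CPM with DMSO and at 805 and 783 CPM with doxycycline there, a log2 change of 0.16 (SE 0.04, adjusted p = 0.0212), without overlap. In all, 8 of 38 members had an unadjusted p under 0.05 in that line, beside 1966 of all 16287 genes tested. The log2 changes of the members ran from -0.30 (ATG7) to 0.33 (GABARAPL1). The call of PSAP was lost when only the LMO1 groups were fitted (adjusted p = 0.0624) and without LMO1 DMSO replicate 2 (0.378), doxycycline replicate 1 (0.248) or doxycycline replicate 2 (0.0707). Without that DMSO replicate the called member was GAA, at 0.30 (adjusted p = 0.0079).

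Because the TAL1/LMO1 line carries both factors, its log2 response was set against the 2 single-line responses added together. The responses being compared share no libraries, but this contrast, the differences between lines and the response itself all use the TAL1/LMO1 libraries. The departure from the sum was called for 17 of 38 members, 15 higher and 2 lower, beside 34.7% of all genes tested, 13.3% higher and 21.4% lower. Its median was 0.22 over the members and -0.06 over all genes tested. WIPI1, with single responses of 0.07 and -0.13, departed by 1.21 (SE 0.23, adjusted p = 8.08e-06). Its level in the TAL1/LMO1 line was the lowest of all lines with DMSO and overlapped that of the TAL1 line with doxycycline. HEXA, at -0.19 and -0.09 in the single lines, departed by 0.99 (SE 0.16, adjusted p = 5.41e-07). ATP6V0D1 departed by 0.84 (SE 0.16, adjusted p = 1.47e-05) and TPP1 by 0.77 (SE 0.10, adjusted p = 4.11e-10). PSAP, at -0.04 and 0.16 in the single lines, departed by -0.97 (SE 0.07, adjusted p = 1.08e-18), the largest departure downward. GAA departed by -0.28 (SE 0.11, adjusted p = 0.0362), a call lost with total counts (adjusted p = 0.100), DESeq2's size factors (0.0620) or its Wald test (0.182) and with TAL1 DMSO replicate 1, TAL1 doxycycline replicate 2, LMO1 DMSO replicate 1, LMO1 doxycycline replicate 2 or either TAL1/LMO1 replicate 2 left out (0.0565 to 0.272). That departure was -0.17 without LMO1 DMSO replicate 1 and -0.44 without LMO1 DMSO replicate 2.

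By role, the departures upward fell on 6 of the 11 autophagy genes, 3 of the 7 proteases, 3 of the 5 V-ATPase genes and 1 each of the membrane genes (LAMP1), glycosidases (HEXA) and transcription factors (TFE3, 0.28, adjusted p = 0.0447). GABARAPL1 rose in the TAL1/LMO1 line, but its departure of 0.41 was not called (adjusted p = 0.25), with single responses of 0.12 and 0.33. NAGLU was similar, with a departure of 0.16 (adjusted p = 0.565) and single responses of 0.10 and 0.26. TFEB departed by -0.43 with an adjusted p of 0.0594. Without replicate 2 of the TAL1/LMO1 doxycycline libraries, 11 members were called in place of 17. The induced transgenes were higher in the TAL1/LMO1 line than in the single lines, TAL1 at 900 against 39.2 CPM and LMO1 at 1539 against 226 CPM. Having both factors cannot be told apart from having more of each. With 1 line per set of factors, it also cannot be told apart from a trait of the line itself. With DMSO, the TAL1/LMO1 line already differed from the TAL1 line for 45.4% and from the LMO1 line for 41.0% of all genes.

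**Figure D3:**
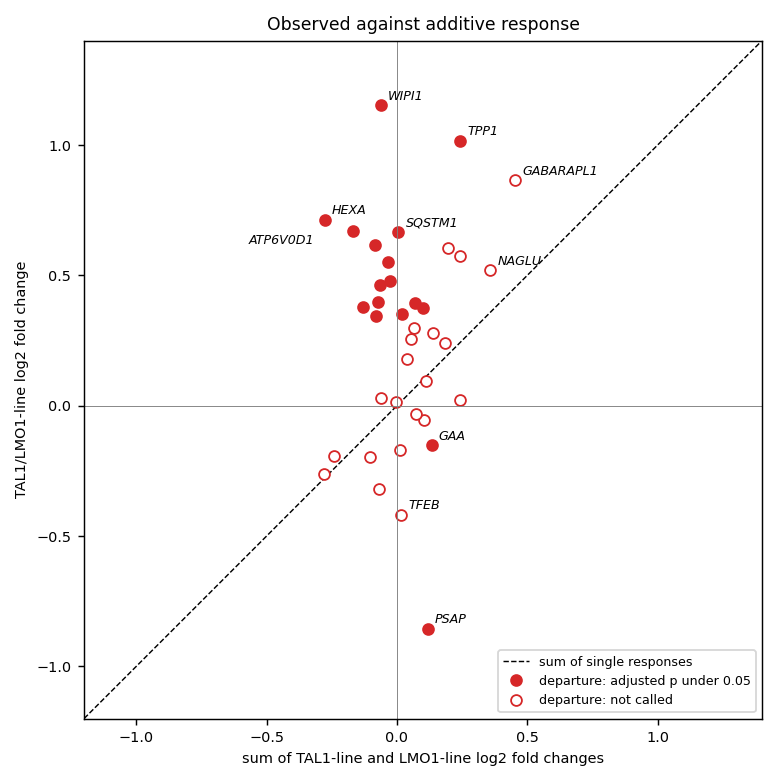
Log2 fold change in the TAL1/LMO1 line (vertical) against the sum of the TAL1-line and LMO1-line log2 fold changes (horizontal) for 38 members; the dashed line is where both are equal, and filled points have a departure with an adjusted p under 0.05. WIPI1, HEXA, ATP6V0D1 and TPP1 lie above the line by 0.77 to 1.21, and PSAP lies below it by 0.97 (a departure of -0.97).

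The difference from each single line was tested directly as well. Against the TAL1 line, the response of the TAL1/LMO1 line was called higher for 20 and lower for 2 members, beside 43.8% of all genes (18.4% higher, 25.4% lower). The largest of these were WIPI1 at 1.09 (SE 0.18, adjusted p = 4.94e-07), HEXA at 0.90 (SE 0.13), TPP1 at 0.88 (SE 0.08) and SQSTM1 at 0.77 (SE 0.09). The lower 2 were PSAP at -0.81 (SE 0.06, adjusted p = 2.25e-19) and TFEB at -0.42 (SE 0.15, adjusted p = 0.0186). Against the LMO1 line, 19 members were called higher and 3 lower, beside 45.4% of all genes (19.1% higher, 26.4% lower). WIPI1 was at 1.28 (SE 0.19), TPP1 at 0.91 (SE 0.08), ATP6V0D1 at 0.84 (SE 0.13) and HEXA at 0.80 (SE 0.13). PSAP was at -1.02 (SE 0.06, adjusted p = 1.42e-24), TFEB at -0.43 (SE 0.14, adjusted p = 0.0104) and GAA at -0.31 (SE 0.09, adjusted p = 0.00244). In DESeq2 neither difference of TFEB was called (adjusted p = 0.114 and 0.0877), and that against the TAL1 line was also lost with total counts (0.0527) and without TAL1 DMSO replicate 1 (0.0997) or doxycycline replicate 2 (0.0985). The difference of GAA was lost without LMO1 DMSO replicate 1 (-0.20, adjusted p = 0.0816).

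Between the TAL1 line and the LMO1 line, the responses of 0 of 38 members differed in edgeR and 0 in DESeq2. Of all genes tested, 0.939% differed in edgeR (0.387% higher, 0.553% lower). An unadjusted p under 0.05 in edgeR was found for 3 members, beside 1181 of all 16287 genes tested. The 3 were PSAP (-0.21), SQSTM1 (-0.22) and GAA (-0.19). These values are the TAL1 response minus the LMO1 response, and the genes are named after their values were seen. Without LMO1 DMSO replicate 1, PSAP was called (-0.25, adjusted p = 0.0402).

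The lines already differed before induction, and the TAL1/LMO1 line held more RNA of many lysosome genes than either single line. Its DMSO libraries were higher than those of the TAL1 line for 24 members and lower for 4, beside 45.4% of all genes (22.4% higher, 23.0% lower). Against the LMO1 line 21 members were higher and 5 lower, beside 41.0% of all genes (20.4% higher, 20.6% lower). The median difference was 0.32 and 0.20 over the members and 0.01 and 0.00 over all genes tested. Both comparisons share the TAL1/LMO1 DMSO libraries.

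CTSD showed the clearest line difference. It was at 142 and 141 CPM in the TAL1/LMO1 line, 60.7 and 58.5 CPM in the TAL1 line and 61.8 and 66.5 CPM in the LMO1 line with DMSO, a difference of 1.25 (SE 0.06, adjusted p = 2.72e-31) from the TAL1 line and 1.14 (SE 0.06) from the LMO1 line. GABARAPL1 was at 12.6 and 11.1 CPM, against 4.20 and 4.21 CPM in the TAL1 line (1.49, SE 0.15) and 6.02 and 5.74 CPM in the LMO1 line (1.01, SE 0.14). ASAH1 was at 86.7 CPM in both TAL1/LMO1 libraries and at 45.6 and 48.6 CPM in the TAL1 line (0.88, SE 0.07, adjusted p = 1.64e-19). NAGLU was at 21.2 and 19.9 CPM, against 8.25 and 9.58 CPM in the LMO1 line (1.20, SE 0.11, adjusted p = 4.16e-15). None of these groups overlapped, and ASAH1 and CTSD, high in the line at the start, changed by only -0.03 and 0.18 with doxycycline.

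WIPI1 was lower in the TAL1/LMO1 line with DMSO than in the TAL1 line, at -1.16 (SE 0.14, adjusted p = 2.87e-11) and than in the LMO1 line, at -0.71 (SE 0.15, adjusted p = 4.17e-05). CTSC was at 102 and 96.2 CPM against 136 and 138 CPM in the TAL1 line (-0.47, SE 0.05), and LIPA was at -0.27 (SE 0.07, adjusted p = 0.00221) in the same comparison. CTSH was at 1.41 and 3.03 CPM against 4.13 and 4.56 CPM in the LMO1 line (-0.97, SE 0.24, adjusted p = 0.000623), and without TAL1/LMO1 DMSO replicate 1 at -0.52 (adjusted p = 0.13) and without replicate 2 at -1.62. CTSZ was at 13.9 and 14.6 CPM against 20.2 and 19.9 CPM in the LMO1 line (-0.50, SE 0.11). In these DMSO libraries of the TAL1/LMO1 line, the 2 values of TAL1 were 3.08 and 7.34 CPM and those of LMO1 0.449 and 6.89 CPM, and the part of this uninduced expression in the line differences was not tested.

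Between the single lines, 6 members were higher and 14 lower in the TAL1 line than in the LMO1 line with DMSO, beside 36.4% of all genes (18.5% higher, 17.8% lower). NAGLU was higher by 0.62 (SE 0.12, adjusted p = 2.26e-05), UVRAG, at 34.7 and 34.4 against 25.3 and 23.8 CPM, by 0.49 (SE 0.09), and WIPI1 by 0.45 (SE 0.12, adjusted p = 0.00228). CTSH, at 1.64 and 1.88 against 4.13 and 4.56 CPM, was at -1.30 (SE 0.25), CTSZ at -0.58 (SE 0.11) and GABARAPL1 at -0.48 (SE 0.18, adjusted p = 0.0237). The call of GABARAPL1 was lost in DESeq2 (adjusted p = 0.0865) and with any of the 4 libraries left out (0.0566 to 0.116).

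**Figure D4:**
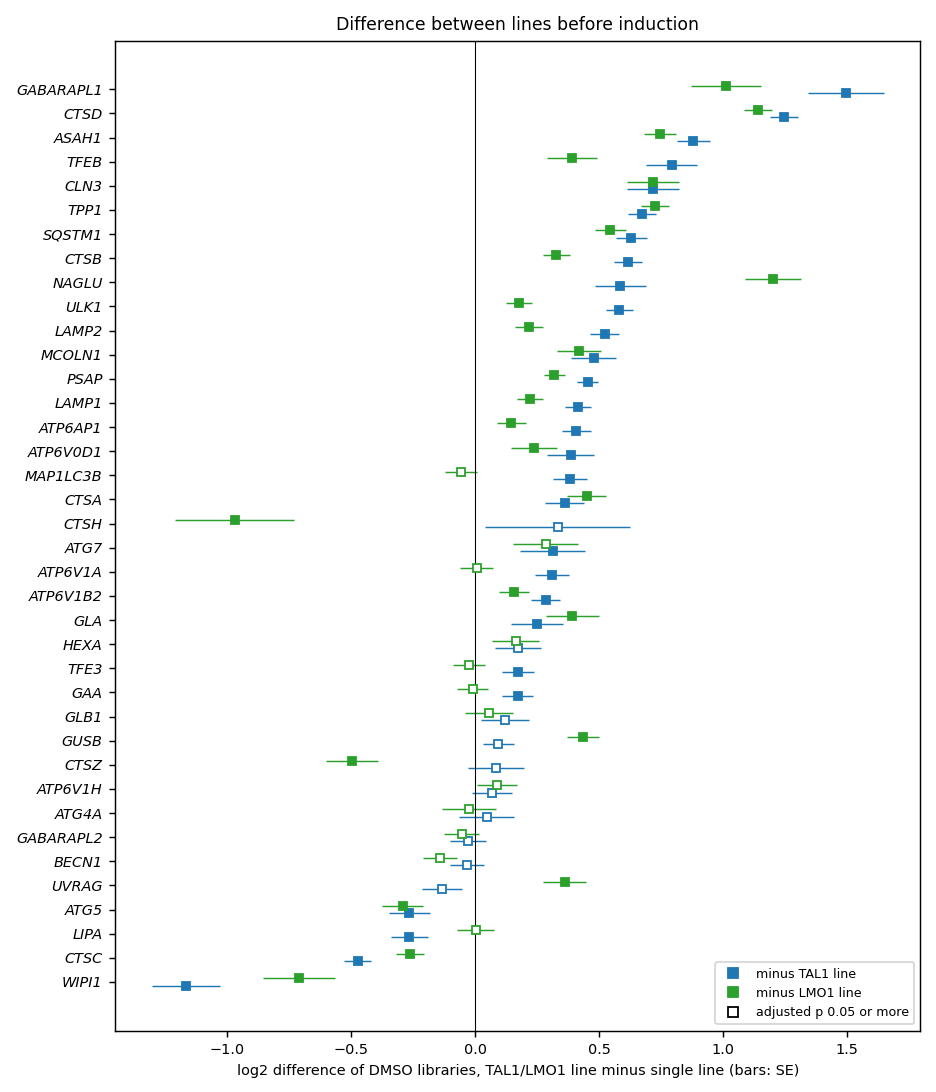
Log2 difference between TAL1/LMO1 libraries with DMSO and the DMSO libraries of the TAL1 line (blue) or the LMO1 line (green) for 38 members, with bars of 1 SE and filled squares at an adjusted p under 0.05. GABARAPL1 (1.49) is farthest to the right against the TAL1 line and NAGLU (1.20) against the LMO1 line, and WIPI1 (-1.16 and -0.71) lies to the left in both.

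Levels were also compared per kilobase of exon, with all annotated exons of a gene merged. PSAP was the most abundant member in every group, with a mean of 199 CPM per kb in the TAL1 line with DMSO. LAMP1 came next in that group at 19.6. In the TAL1/LMO1 line PSAP was at 273 CPM per kb with DMSO and 151 with doxycycline. Its next members were CTSD at 45.2 and LAMP1 at 26.2 with DMSO, and CTSD at 51.3 and TPP1 at 43.7 with doxycycline. TPP1, at 21.6 CPM per kb before, moved from rank 5 to rank 3 of the 40 genes. CTSH had the lowest level of the tested members in every group, at most 0.755 CPM per kb.

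Other genes of the same pathways also rose more often than they fell in the TAL1/LMO1 line. Of 173 such genes in 9 lists, 163 were tested, and 93 rose and 28 fell, with a median log2 change of 0.28. For this count and the list counts below, the shares over all genes tested were 28.5% higher and 31.7% lower, with a median of -0.01. Among other lysosomal hydrolases 22 of 30 rose and 4 fell. SMPD1, acid sphingomyelinase, rose by 1.95 (SE 0.11, adjusted p = 5.62e-27), AGA, which cleaves glycoasparagines, by 1.32 and DNASE2, the acid DNase, by 1.13. Among the falls were HYAL2, a hyaluronidase, at -1.40, LGMN, the asparagine-specific protease legumain, at -1.04 and ARSB, a sulfatase, at -0.91. Of 19 other membrane genes 11 rose, such as GLMP (1.15), the chloride transporter CLCN7 (0.82) and SCARB2 (0.69), which carries glucocerebrosidase to lysosomes. Another 4 of them fell, among them the cation channel TPCN1 (-1.35), LAMP3 (-0.78) and LAPTM4B (-0.44).

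Of 16 other V-ATPase genes 8 rose, with TCIRG1 at 0.56, ATP6V1C1 at 0.36 and ATP6V0E2 at 0.34, and 4 fell, with ATP6V1B1 at -1.25, ATP6V0A2 at -0.65 and ATP6V0B at -0.25. The mTORC1 and nutrient-sensing genes were divided, with 12 of 27 higher and 9 lower and a median of 0.09. SESN3, a sestrin that restrains mTORC1, rose by 2.29, and the folliculin partners FNIP2 and FNIP1 rose by 1.25 and 0.97. The mTORC1 subunits MLST8 and RPTOR fell, at -0.83 and -0.69, as did NPRL3 (-0.55), a subunit of the GATOR1 complex that inhibits mTORC1.

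Other genes of autophagy initiation rose in 6 of 8 cases and fell in 2, with ATG13 at 0.52, RUBCN (rubicon, which slows maturation) and RB1CC1 both at 0.43, and PIK3R4 and ATG101 both at -0.27. Of 18 genes of autophagosome growth and ATG8 conjugation, 9 rose and 3 fell. TMEM41B was at 0.59, WDR45 at 0.58 and ATG9A at 0.50, against ATG4C at -0.72, ATG3 at -0.36 and ATG10 at -0.32. Selective autophagy receptors rose in 7 of 11 cases, among them OPTN (0.85), CALCOCO2 (0.72) and NBR1 (0.63), and fell in none. Sorting and fusion genes rose in 13 of 25 cases, with PLEKHM1 at 1.26, VPS18 of the tethering complex at 0.79 and GNPTAB, which makes the mannose 6-phosphate tag, at 0.58, and LYST alone fell (-0.84). Among 9 other regulators 5 rose and 1 fell. FOXO3, an activator of autophagy genes, was at 0.99, ZKSCAN3, a repressor of them, at 0.75 and MAX at 0.62, while MYC, the partner of MAX, fell by 3.49.

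In the single lines these other genes were called about as often as all genes tested. SESN3 (0.62) and ATG16L2 (0.26) rose and LYST (-0.23) fell in the TAL1 line, which makes 3 of 163 tested, beside 1.84% of all genes. In the LMO1 line SESN2 (0.42) rose and LGMN (-0.72) and ATP6V1G1 (-0.20) fell, again 3 of 163, beside 2.14% of all genes.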

How the data were processed

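RNA-seq counts of 12 HPB-ALL libraries (3 lines, DMSO or doxycycline, 2 libraries each) were analysed. Libraries were strand-specific and read as pairs of 100 bp, per the labels' protocols. Build hg19, STAR 2.5.2a, featureCounts and DESeq2 1.12.4 come from the submitters' processing notes. The annotation, the strand setting and whether reads or pairs were counted were not given in the sources used here. Gene-level counts, not normalized, were deposited for all libraries. For each line the authors deposited DESeq2 output that holds, per the file headers, normalised counts averaged over libraries (a signal), log2 fold changes and their SE, the Wald score, and raw and adjusted p-values. The authors' ratios were read as doxycycline over DMSO from the induced transgenes.

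From the counts, genes were kept by filterByExpr with 6 groups and scaled by TMM, and 1 mean per group was fitted in edgeR 4.0.16 (R 4.3.3, robust quasi-likelihood), with 6 residual and a median of 66.0 prior degrees of freedom. F tests were two-sided, and p-values were adjusted by Benjamini-Hochberg over the 16287 genes tested. Log2 fold changes use a prior count of 0.125, and the SE is the change over the square root of F, or the counting error if larger. CPM uses the scaled library size, and SDs are over 2 libraries. The upper limit for 0 counts (3 counts per library, 95% confidence) is 0.184 to 0.198 CPM and covers counting error only. No source calls the replicates separate cultures, so the p-values reflect the spread of these libraries alone, which may be technical. The 10 comparisons were the doxycycline response of each line, their differences, the departure from the sum, and the DMSO libraries between lines. Same-numbered libraries of a line did not deviate together (correlations 0.014, 0.0043 and -0.015 over 16287 genes), so numbers were not used as pairs. Of a symbol with several identifiers (4 members), the one with counts was used.

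Levels per kilobase used the merged length of all annotated exons of a gene in GENCODE 29. Genes were matched by Ensembl identifier, on another build than the counts. Merged lengths (15.4 kb for ASAH1) can exceed that of a single mRNA, so ranks between members depend on the annotation. No RefSeq promoter was used for LAMP2, CTSB, HEXA, NAGLU, ASAH1, PSAP, ATP6V1A, ATP6V1B2, ATP6V1H and UVRAG. The members, lists and tests were chosen with earlier results of these data known. All 40 members are named. Library values are given for TFEB, TFE3 and MITF, for the 6 largest called rises and falls in the TAL1/LMO1 line, up to 4 per direction in each single line and in each difference of responses, and up to 3 in each DMSO comparison. From other lists up to 3 called genes per direction with the smallest p are named, and up to 2 in a single line. Alternatives were total counts, DESeq2's size factors, DESeq2 1.42.0, no filter and a stricter one (1 CPM in 2 libraries), a replicate block, only the groups compared, a non-robust fit and leaving out each library. The procedure was run on simulated data in which a small part of the genes changed in the doxycycline group of a line. A response as wide as that of the TAL1/LMO1 line, with 60.2% of genes called, was not simulated.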

Additional observations from a re-analysis of the deposited data

Results flagged for a closer look

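The doxycycline response of the TAL1/LMO1 line differed from those of the single lines for the following members, each difference being a contrast tested within the edgeR model (log2 scale, adjusted p under 0.05). Against the added responses of both single lines, WIPI1 differed by 1.21, HEXA by 0.99, ATP6V0D1 by 0.84, TPP1 by 0.77, PSAP by -0.97 and GAA by -0.28. Against the response of the TAL1 line, WIPI1 differed by 1.09, HEXA by 0.90, TPP1 by 0.88, SQSTM1 by 0.77, PSAP by -0.81 and TFEB by -0.42. Against the response of the LMO1 line, WIPI1 differed by 1.28, TPP1 by 0.91, ATP6V0D1 by 0.84, HEXA by 0.80, PSAP by -1.02, TFEB by -0.43 and GAA by -0.31. The sets overlap because all 3 contrasts use the TAL1/LMO1 libraries. The calls of GAA and TFEB did not hold under every alternative, as given with their values above. WIPI1 started lowest in the TAL1/LMO1 line and rose to levels that overlapped those of the TAL1 line.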

How the results depend on the processing

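Of the 30 members called in the TAL1/LMO1 line, 24 kept the call with each library left out in turn and 25 under each other alternative. Leaving out a library gave 26 to 29 called members for that response, 11 to 17 for the departure from the sum, 18 to 21 and 19 to 23 for its differences from the TAL1 and the LMO1 response, and 24 to 27, 22 to 25 and 15 to 18 for the DMSO comparisons (TAL1/LMO1 against TAL1, TAL1/LMO1 against LMO1, TAL1 against LMO1). It gave 0 throughout in the TAL1 line, 0 to 1 in the LMO1 line and 0 to 1 for the TAL1 against the LMO1 response. For these and the other alternatives, the share of all genes called is not given, so the counts describe the members only. With only the groups compared, 0 members were called in the LMO1 line. With the replicate number as a block, 31 members were called in the TAL1/LMO1 line, 30 of them the same, with LIPA added (adjusted p = 0.0457), and no other count of members changed in a doxycycline response. Signs were checked for the tested members in the TAL1/LMO1 line, for TFEB and TFE3 in each line and for the members selected by size in each comparison. Other members of the single lines were not checked. Among those checked, signs turned only for members that were not called: with total counts CTSB (0.043) and ASAH1 (0.065), with no filter CTSC (-0.023), GLA (-0.0074) and GUSB (-0.014), and TFEB in the TAL1 line with the size factors of DESeq2 (-0.0046) and its Wald test (-0.0048). Leaving out 1 library gave log2 ranges that cross 0 in the TAL1/LMO1 line for CTSC (-0.038 to 0.042), GLA (-0.14 to 0.16), GUSB (-0.020 to 0.043), ASAH1 (-0.10 to 0.0025) and ATG7 (-0.46 to 0.0013), for TFEB in the TAL1 line (-0.078 to 0.089) and the LMO1 line (-0.033 to 0.058), and for TFE3 in the LMO1 line (-0.048 to 0.071). The cause of these changes was not tested. With 2 libraries per group and 14865073 to 15917713 counts each, small changes of low genes such as CTSH are the least certain.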
